A study of Mus musculus with 9 samples.

Results

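The 7 haemoglobin genes Hba-a1, Hba-a2, Hbb-bs, Hbb-bt, Hbb-y, Hbb-bh1 and Hba-x were followed through a single-cell data set of the mouse trigeminal ganglion. They were taken by name from a count table of 21536 genes and 6997 cell barcodes, and all 7 were found there. Each barcode stands for a STAMP, a single-cell transcriptome attached to a microparticle, and each count is a unique molecular identifier (UMI), that is, a distinct captured transcript. The ganglia came from wild type FVB/N mice of 3 to 6 weeks by the sample labels (the study's methods give a slightly lower upper age for these runs), and many mice of both sexes were pooled in each of 9 Dropseq runs. The cell suspension had passed a Percoll gradient and an antibody depletion of glia and other non-neuronal cells before capture, so that the red cells present were those that both steps had left. Because the table does not tie a barcode to its run, the barcodes were summed as 1 pooled sample, and groups of them could not be tested against each other. Values are given with 95% intervals, exact binomial for shares and ratios and exact Poisson for UMIs per 1000000 UMIs, which cover counting error only.

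Haemoglobin is the oxygen carrier of red blood cells and is built of a pair of alpha-type and a pair of beta-type chains around haem. In the mouse the alpha-type genes lie in one cluster and the beta-type genes in another, and within each cluster the embryonic genes are used by the primitive red cells of the yolk sac and the adult genes by later red cells. Hba-a1 and Hba-a2 encode adult alpha chains, Hbb-bs and Hbb-bt adult beta chains, Hba-x the embryonic zeta chain, and Hbb-y and Hbb-bh1 embryonic beta-type chains. Reticulocytes, the last stage before the mature cell, have lost the nucleus and still hold much globin RNA. In droplet methods, a haemoglobin UMI in a neuron's barcode can be RNA that was free in the suspension or came from another cell in the droplet.

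On the GRCm38 assembly, with GENCODE annotation, the alpha-type genes lay on the plus strand of chromosome 11, Hba-x at chr11:32276400-32278116, Hba-a1 at chr11:32283511-32284465 and Hba-a2 at chr11:32296489-32297298. The beta-type genes lay on the minus strand of chromosome 7, Hbb-bt at chr7:103812524-103813996, Hbb-bs at chr7:103826534-103828096, Hbb-bh1 at chr7:103841637-103843164 and Hbb-y at chr7:103851749-103853216. Each gene had 3 exons, with 426 coding bases in the alpha-type and 441 in the beta-type genes. RefSeq promoter sequences of GRCm38.p6 were matched by symbol for 6 of the 7 genes. The 250 bases before the RefSeq start site are shown for the 3 abundant adult genes and for 2 embryonic genes, since the members differ most in level between these kinds. GENCODE places the start of some of these genes further upstream. Capitals mark 4 motifs on either strand. CACCC is of the kind bound by KLF factors and CCAAT by nuclear factor Y and related proteins. ATATAA is of the kind bound by the TATA-binding protein and GATAA by GATA factors.
Hba-a1, chr11:32283422-32283671, plus strand: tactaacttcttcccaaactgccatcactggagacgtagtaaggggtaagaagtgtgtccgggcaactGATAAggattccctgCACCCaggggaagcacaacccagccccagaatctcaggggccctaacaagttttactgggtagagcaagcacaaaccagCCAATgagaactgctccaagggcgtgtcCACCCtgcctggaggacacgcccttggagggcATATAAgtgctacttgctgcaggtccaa
Hbb-bs, chr7:103827929-103828178, minus strand: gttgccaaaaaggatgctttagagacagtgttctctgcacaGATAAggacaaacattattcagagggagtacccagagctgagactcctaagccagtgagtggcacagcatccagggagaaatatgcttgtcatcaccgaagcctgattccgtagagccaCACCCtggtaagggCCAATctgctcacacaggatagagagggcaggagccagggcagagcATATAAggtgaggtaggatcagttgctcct
Hbb-bt, chr7:103813924-103814173, minus strand: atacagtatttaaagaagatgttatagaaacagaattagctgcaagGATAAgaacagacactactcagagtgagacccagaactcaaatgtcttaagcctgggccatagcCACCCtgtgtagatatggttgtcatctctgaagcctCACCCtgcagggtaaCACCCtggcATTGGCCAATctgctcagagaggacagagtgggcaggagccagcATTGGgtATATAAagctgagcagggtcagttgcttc
Hbb-y, chr7:103853208-103853457, minus strand: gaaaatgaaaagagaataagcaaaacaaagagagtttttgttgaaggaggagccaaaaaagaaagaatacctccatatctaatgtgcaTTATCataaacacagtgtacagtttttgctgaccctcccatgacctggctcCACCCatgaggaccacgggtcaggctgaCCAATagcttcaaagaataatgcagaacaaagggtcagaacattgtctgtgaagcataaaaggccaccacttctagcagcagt
Hba-x, chr11:32276350-32276599, plus strand: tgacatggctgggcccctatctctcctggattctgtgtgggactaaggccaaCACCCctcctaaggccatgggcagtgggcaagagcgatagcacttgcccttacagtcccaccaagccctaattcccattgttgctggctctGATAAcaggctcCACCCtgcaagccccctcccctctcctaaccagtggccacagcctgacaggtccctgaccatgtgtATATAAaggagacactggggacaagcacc
Hba-a2 is not printed because its promoter was identical to that of Hba-a1 over all 297 aligned bases, whereas Hbb-bs and Hbb-bt were identical at 219 of 293 aligned bases (74.7%). All 3 abundant adult genes held each of the 4 motifs at least once, and Hbb-bt held 3 CACCC and 3 CCAAT. The stretch of Hbb-y held no ATATAA on either strand, and that of Hba-x no CCAAT. Among 32851 mouse promoters of 300 bases, 57.5% held CACCC, 37.4% CCAAT, 9.82% ATATAA and 25.4% GATAA. A match describes the letters of the window and is not a measured binding site.

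How far the genes can be told apart depends on their transcripts. Hba-a1 and Hba-a2 were identical at 537 of 538 aligned transcript bases (99.8%), and 201 of the 251 windows of 50 bases in the last 300 bases of Hba-a1, where 3′-end sequencing reads fall, also occurred in Hba-a2. Hbb-bs and Hbb-bt were identical at 92.7% of aligned bases and shared 92 of 251 such windows. Against Hbb-bs, the embryonic genes Hbb-y and Hbb-bh1 were identical at 71.2% and 71.9% of aligned bases and shared 0 windows. The split of UMIs between Hba-a1 and Hba-a2 is therefore uncertain, that between Hbb-bs and Hbb-bt less so, and how reads that fit both were counted is not given in the sources used here. An alpha to beta ratio is given for groups of barcodes, but it differed with the number of haemoglobin UMIs and is not a balance of chains. The reads of FVB/N mice were also counted on mm10, which is built from C57BL/6J, and mouse strains differ in their adult beta genes. Hbb-b1 and Hbb-b2, the names of the adult beta genes of other strains, were not used here.

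The table held 30491529 UMIs, and a barcode had between 1000 and 190815 of them, with a median of 2031. Haemoglobin took 1172751 UMIs, or 3.85% of all. Hbb-bs contributed 700050 of these, Hba-a1 319669 and Hbb-bt 152321. Hba-a2 followed with 634 UMIs, Hbb-y with 55, Hbb-bh1 with 20 and Hba-x with 2. Some haemoglobin was found almost everywhere, as 96.7% of barcodes held at least 1 UMI and 230 held none. A UMI marks the 3′ end of a transcript, so these levels are not scaled by gene length. In the whole table, 6 barcode sequences occurred in 2 columns each, and all 12 columns had 3 or more neuron markers and none an erythroid marker.

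The barcodes fell to the ends of the scale. Haemoglobin was under 1% of UMIs in 4771 barcodes (68.2%), from 1 to under 10% in 1001 and at least 10% in 1225, and the last held 87.8% of all haemoglobin UMIs. It made up at least 50% of UMIs in 821 barcodes. These 821 had a median of 147 genes, and the plot of haemoglobin share by barcode shows them as a separate peak.

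**Figure D1:**
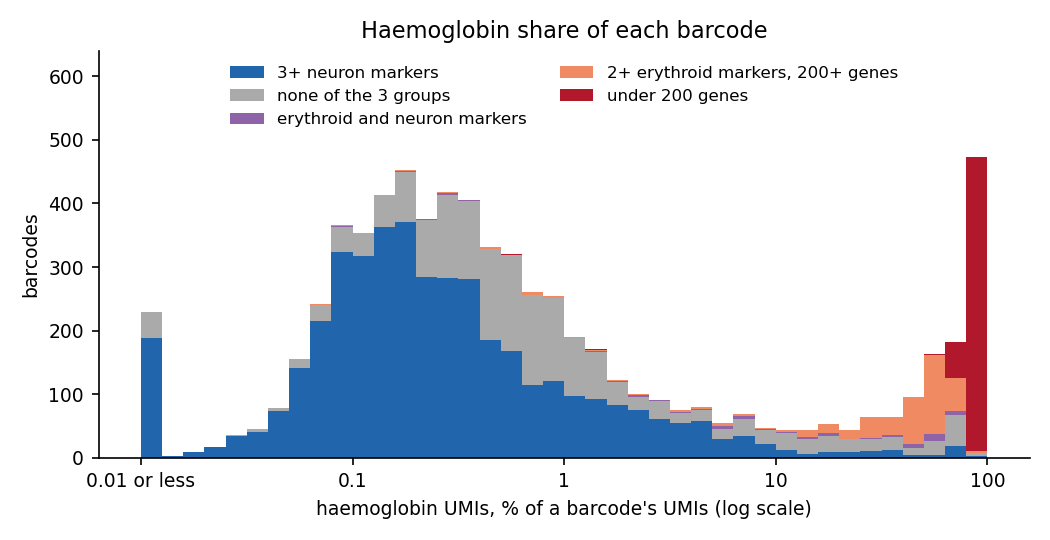
Number of barcodes (vertical axis) by the share of haemoglobin genes in a barcode's UMIs (horizontal axis, log scale, barcodes with 0.01% or less in the first bar), coloured by group. The main peak lies between 0.1 and 1% and is mostly barcodes with 3 or more neuron markers, and a second peak near 100% is mostly barcodes with under 200 genes.

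Barcodes were sorted into 3 groups by measures other than haemoglobin. The first held 523 barcodes with under 200 genes (low-gene barcodes). The second held 468 barcodes with 200 or more genes and a UMI of at least 2 of Hemgn, Icam4, Rhd, Tal1, Kel and Alas2 (erythroid-marker barcodes). The third held 4342 barcodes with a UMI of at least 3 of Tubb3, Scn9a, Snap25, Nefl, Nefm and Uchl1 (neuron-marker barcodes). These barcodes served as the background, of RNA that was free or came from another cell in the droplet. The groups overlapped, since 41 low-gene and 71 erythroid-marker barcodes also had 3 or more neuron markers, and 1776 barcodes belonged to none. Median UMIs were 1183, 1521.5, 2922 and 1530 per barcode. A barcode with few genes but at least 1000 UMIs must hold many UMIs of a few genes, so that a limit on genes favours barcodes led by any abundant gene.

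Low-gene barcodes consisted largely of haemoglobin RNA. The 7 genes made up 84.7% of their UMIs (84.6 to 84.8%) with a barcode median of 85.4% and a 5th to 95th percentile range of 76.0 to 90.9%. These 523 barcodes held 47.2% of all haemoglobin UMIs. A median barcode held 598 UMIs of Hbb-bs, 276 of Hba-a1 and 135 of Hbb-bt, and each of these 3 genes had a UMI in all 523. Only 2 of the barcodes had less than 50% haemoglobin, with 0.547% and 1.28%, whereas the lowest of the other 521 had 54.3%.

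Erythroid-marker barcodes held less haemoglobin and varied more. Their pooled share was 20.5% (20.4 to 20.6%), the barcode median 45.3%, and the 5th and 95th percentiles 0.706% and 69.4%. The pooled value was lowered by the 71 barcodes that also had neuron markers, which had 745692 UMIs in all at a share of 4.77%. Without them the pooled share was 36.8% and the median 47.9%. Thinning every barcode of the full group to 1000 UMIs gave a pooled share of 39.6%. A median barcode of the full group held 369 UMIs of Hbb-bs, 176 of Hba-a1 and 83 of Hbb-bt. Haemoglobin reached 10% in 392 of the 468 and stayed under 1% in 31.

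Neuron-marker barcodes held a pooled 0.928% (0.925 to 0.932%), with a barcode median of 0.210%. A median barcode held 6 UMIs of Hbb-bs, 2 of Hba-a1 and 1 of Hbb-bt, and 188 of the 4342 held none of the 7 genes. The pooled value rested on few barcodes, as 167 with at least 10% haemoglobin held 53.6% of the group's haemoglobin UMIs. Of these 167, 40 were low-gene barcodes, 37 were erythroid-marker barcodes and 90 were neither. Among the 3806 neuron-marker barcodes without any of the 6 erythroid markers the pooled share was 0.355% (0.352 to 0.357%) and the median 0.186%. With every barcode of the full group thinned to 1000 UMIs, so that each had the same weight, the pooled share was 2.52%.

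Haemoglobin changed little at the limit on genes and rose gradually with the number of erythroid markers. Barcodes just under 200 genes had a median share of 74.1% (23 barcodes) and those just above had 73.7% (30 barcodes). With 0, 1, 2, 3 and at least 4 erythroid markers, the median share in barcodes with 200 or more genes was 0.250%, 3.24%, 24.8%, 46.3% and 47.9%, and the pooled share 0.466%, 4.29%, 8.44%, 29.0% and 37.8%. Over all barcodes, low-gene ones included, the median share for 0 to 6 neuron markers went from 3.62% over 1.42%, 0.816%, 0.725%, 0.302% and 0.231% to 0.156%. Barcodes with a single erythroid marker thus had an intermediate haemoglobin level, and those with 3 neuron markers had more haemoglobin than those with 6.

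Gene by gene, the order of the members was the same in the 3 groups down to Hbb-bh1. Hbb-bs, an adult beta gene, took 49.8% of UMIs in low-gene, 11.9% in erythroid-marker and 0.585% in neuron-marker barcodes. Hba-a1, an adult alpha gene, took 23.3%, 5.86% and 0.234%. Hbb-bt, the other adult beta gene, took 11.4%, 2.77% and 0.109%. As a share of barcodes with a UMI, Hbb-bs was found in 100% of low-gene, 99.8% of erythroid-marker and 92.2% of neuron-marker barcodes, and in 73.9% of the last after each barcode had been thinned to 1000 UMIs. The neuron-marker share is the background against which any detection in a barcode has to be read, so that the presence of a haemoglobin UMI does not mark a red cell here.

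Hba-a2, whose transcript is nearly that of Hba-a1, was counted at 541 UMIs per 1000000 (487 to 601) in low-gene, 93.4 (78.4 to 110) in erythroid-marker and 4.32 (3.55 to 5.20) in neuron-marker barcodes. Over all barcodes there were 504 (466 to 546) UMIs of Hba-a1 for each UMI of Hba-a2. By group this ratio was 431 (388 to 480) in low-gene, 627 (531 to 747) in erythroid-marker and 541 (449 to 658) in neuron-marker barcodes. The interval of the low-gene group lay below that of the erythroid-marker group, and that of the neuron-marker group overlapped both. With shared transcript ends, the ratio cannot be read as the use of these genes, since how shared reads were counted is not given.

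**Figure D2:**
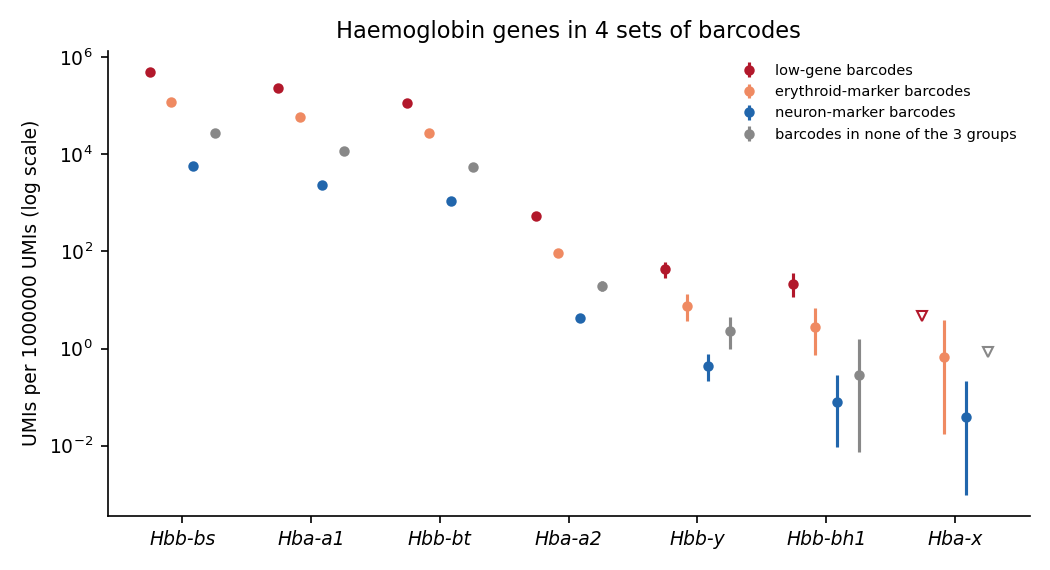
UMIs of each haemoglobin gene per 1000000 UMIs (vertical axis, log scale) in low-gene, erythroid-marker, neuron-marker and remaining barcodes, with exact Poisson 95% intervals as bars, which are smaller than the point for the abundant genes. Open triangles mark the level of 3 UMIs where a gene had no UMI, and Hbb-bs, Hba-a1 and Hbb-bt lie highest in each set.

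The embryonic genes were close to absent. Hbb-y had 55 UMIs in 53 barcodes, or 46.9 UMIs per 1000000 haemoglobin UMIs (35.3 to 61.0). Hbb-bh1 had 20 UMIs in 19 barcodes, or 17.1 per 1000000 haemoglobin UMIs (10.4 to 26.3). Hba-x had 1 UMI in each of 2 barcodes, which allows no comparison. Most of these barcodes held no more than 1 embryonic UMI, the highest being 3 of Hbb-y and 2 of Hbb-bh1 in a barcode.

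By the limit of 10% haemoglobin, Hbb-y UMIs were distributed much as haemoglobin was. Of the 53 barcodes with Hbb-y, 47 had at least 10% haemoglobin and 3 had under 1%, and barcodes with at least 10% held 87.8% of all haemoglobin UMIs. Per 1000000 haemoglobin UMIs, Hbb-y stood at 47.6 (35.2 to 62.9) in barcodes with at least 10% haemoglobin and 42.1 (15.4 to 91.6) in those below. All 19 barcodes with Hbb-bh1 had at least 51.5% haemoglobin. Per 1000000 haemoglobin UMIs, Hbb-bh1 stood at 19.4 (11.9 to 30.0) in barcodes with at least 10% and 0 (0 to 25.9) in those below. These intervals overlapped. Low-gene barcodes held 28 of the Hbb-y UMIs and 14 of the Hbb-bh1 UMIs, and erythroid-marker barcodes held 11 and 4. The low-gene part was 50.9% for Hbb-y and 70% for Hbb-bh1, against 47.2% for all haemoglobin UMIs. Relative to haemoglobin, Hbb-y stood at 50.6 per 1000000 haemoglobin UMIs (33.6 to 73.1) in low-gene, 36.6 (18.3 to 65.5) in erythroid-marker and 46.1 (23.0 to 82.5) in neuron-marker barcodes. These intervals overlapped, so that no difference in Hbb-y per haemoglobin UMI was detectable at this depth. For Hbb-bh1 the values were 25.3 (13.8 to 42.4), 13.3 (3.62 to 34.1) and 8.39 (1.02 to 30.3), whose intervals overlapped too. Of the 73 barcodes with an embryonic gene, 1 held both Hbb-y and Hbb-bh1.

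The alpha to beta ratio differed little between the groups rich in haemoglobin. It was 0.382 (0.380 to 0.384) in low-gene and 0.401 (0.398 to 0.404) in erythroid-marker barcodes. In neuron-marker barcodes it was 0.338 (0.334 to 0.341), and in those without any erythroid marker 0.306 (0.301 to 0.311). The intervals of these values do not overlap, but they leave out the spread between barcodes and between runs.

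The Hbb-bs to Hbb-bt ratio was close in the groups rich in haemoglobin and higher in neuron-marker barcodes. It was 4.35 (4.32 to 4.39) in low-gene and 4.28 (4.24 to 4.33) in erythroid-marker barcodes, against 5.37 (5.31 to 5.44) in neuron-marker barcodes. In neuron-marker barcodes without any erythroid marker it was 6.96 (6.79 to 7.14). The pooled proportions of neuron-marker barcodes thus differed from those of both groups rich in haemoglobin.

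Within neuron-marker barcodes the ratio moved with the haemoglobin share. Where haemoglobin was under 0.5% of UMIs, in 3143 barcodes, Hbb-bs to Hbb-bt was 7.18 (6.93 to 7.44) and alpha to beta was 0.274. From 0.5 to 5% it was 6.86 (6.67 to 7.07), and from 5 to 50% it was 5.22 (5.09 to 5.34). At 50% or more, in 83 barcodes, it was 4.25 (4.16 to 4.34), the level of the low-gene group. In neuron-marker barcodes with 200 or more genes and that share it was 4.24 (4.12 to 4.36), so the low-gene barcodes among them did not set the value. Of these 43 barcodes, 26 were not erythroid-marker barcodes, and the ratio of the 26 alone was not taken.

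The ratio also moved with the number of haemoglobin UMIs in a barcode, in every group. Over all barcodes, Hbb-bs to Hbb-bt lay between 6.60 and 7.54 in each bin below 200 haemoglobin UMIs. It was 5.45 (5.34 to 5.56) from 200 to under 500 UMIs, 4.54 (4.50 to 4.58) from 500 to under 1000 and 4.11 (4.07 to 4.14) from 1000. In low-gene barcodes it was 4.58 (4.50 to 4.67) in the 133 with fewest haemoglobin UMIs and 4.08 (4.03 to 4.14) in the 131 with most. In erythroid-marker barcodes the 118 with fewest and the 117 with most had 5.90 (5.63 to 6.18) and 3.98 (3.92 to 4.05). At a given number of haemoglobin UMIs the groups lay between 4.80 and 5.96 in the bin from 200, between 4.38 and 4.84 in the bin from 500 and between 3.82 and 4.21 in the bin from 1000. The plot of both ratios shows this fall in each group.

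Share and number could be set apart only in part. Among neuron-marker barcodes with under 0.5% haemoglobin the ratio was between 6.89 and 7.39 in each of 6 bins, from 1 to 4 haemoglobin UMIs up to 100 and more. Among barcodes of any group with at least 10% haemoglobin it was 6.64 (6.15 to 7.17) with under 200 haemoglobin UMIs, in 49 barcodes, and 4.11 (4.07 to 4.14) with 1000 or more. The pooled haemoglobin share of these sets was 12.9% and 75.6%, so that share and number moved together here too. The gene pairs did not move alike. Hbb-bs to Hba-a1 was 2.75 (2.61 to 2.90) and 2.05 (2.03 to 2.06) in these sets, and Hba-a1 to Hbb-bt was 2.41 (2.22 to 2.63) and 2.01 (1.99 to 2.03). Hbb-bs, the gene with most UMIs, was lower relative to both others in barcodes with many haemoglobin UMIs. Whether the number of UMIs counted per gene in a barcode, the kind of cell or the run goes with these ratios was not tested.

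**Figure D3:**
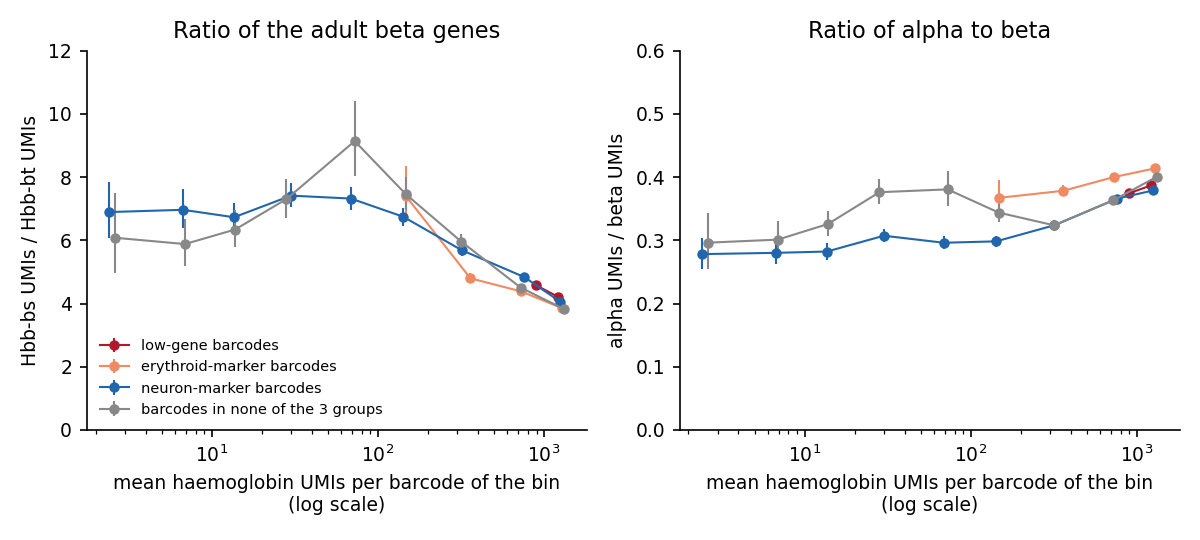
Ratio of Hbb-bs to Hbb-bt UMIs (left) and of alpha to beta UMIs (right) in bins of haemoglobin UMIs per barcode (horizontal axis, mean of the bin, log scale), for bins of at least 20 barcodes with 95% counting intervals as bars. The Hbb-bs to Hbb-bt ratio falls from the bin at 200 UMIs to the last bin in each group with those bins, after a rise to 9.14 in barcodes of none of the groups, and the alpha to beta ratio is highest in the last bin of each group.

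Barcodes of a group differed by more than counting. In 521 low-gene barcodes with at least 200 haemoglobin UMIs, the alpha share of haemoglobin UMIs had an SD of 3.24 percentage points, where counting alone gives 1.40. The share of Hbb-bs in the sum of Hbb-bs and Hbb-bt had an SD of 3.46 percentage points against 1.43 from counting. The share of Hba-a1 in the sum of Hba-a1 and Hba-a2 had an SD of 0.290 against 0.289. The 5th to 95th percentile range of Hbb-bs to Hbb-bt was 3.15 to 6.97 in low-gene and 3.05 to 8.22 in erythroid-marker barcodes. The pooled ratios of these groups thus stood close together within a wide range of single barcodes.

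The rest of the transcriptome was then compared between the groups, in UMIs per 1000000 UMIs other than haemoglobin and leaving out the barcodes in 2 groups. Lists of genes of red cell biology were used, chosen with earlier results of these data known, and the 6 genes that define the erythroid-marker group were left out of the counts. Of all 14327 genes with at least 20 UMIs over both groups, 27.8% were at least 2-fold higher in erythroid-marker than in neuron-marker barcodes. A group with no UMI of a gene was put at 3 UMIs, and when the 3116 genes with no erythroid-marker UMI were not called, the share was 17.0%. Of the 60 list genes tested, 52 were, by either count. All 7 haem synthesis genes were higher, with a median of 40.4-fold, against a median over all genes tested of 0.853-fold, or 0.432-fold with unseen genes left at 0. So were 11 of 12 red cell membrane genes, 9 of 11 erythroid transcription factors, 9 of 9 late maturation genes, 7 of 9 red cell enzymes, 6 of 8 iron genes, both testable minor globins and 2 of 3 early erythroid genes. Slc4a1, the band 3 anion exchanger, stood at 2505 per 1000000 against 2.87. Klf1, a transcription factor that activates the adult beta gene, stood at 896 against 0.849. The erythroid-marker barcodes thus held much of the red cell programme beyond the genes that chose them.

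Low-gene barcodes differed from erythroid-marker barcodes in many of these genes. Of 3854 genes with enough UMIs, 11.1% were at least 2-fold higher in low-gene barcodes and 48.9% at least 2-fold lower, with a median of 0.504-fold (0.451-fold with unseen genes left at 0). Of 9 late maturation genes, 6 were at least 2-fold higher and 0 lower, with a median of 4.85-fold. Hemgn, a nuclear protein of red cell precursors that stands in this list but was not counted because it helps to choose the erythroid-marker group, was at 166 per 1000000 against 2261 (0.0735-fold). Mkrn1, a ubiquitin ligase, stood at 14174 per 1000000 against 1583, and Bnip3l, needed for the clearance of mitochondria from reticulocytes, at 7242 against 733. Isg20 was 4.30-fold higher.

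Genes of several other lists were lower more often than higher, as were all genes tested (48.9% lower and 11.1% higher). Of 11 erythroid transcription factors, 0 were 2-fold higher and 8 were 2-fold lower in low-gene barcodes. Klf1 stood at 11.1 per 1000000, from 1 UMI, and Gata1, a master regulator of red cell genes, at 22.1, from 2 UMIs, against 246. Among haem synthesis genes 6 of 7 were lower, with Alad, the enzyme of the second step, at 0.0224-fold and Cpox at 0.0532-fold. Fech, which inserts iron into the ring as the last step, was 3.04-fold higher. Alas2, the first enzyme of the pathway in red cells and part of the rule, stood at 21860 per 1000000 in low-gene and 2882 in erythroid-marker barcodes.

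Membrane, iron and enzyme genes included some at each extreme. Of 12 membrane genes 10 were 2-fold lower, Ermap being 0.101-fold and Slc4a1 0.460-fold, whereas Epb41, which encodes protein 4.1 of the membrane skeleton, was 7.81-fold higher. Tfrc, the transferrin receptor, was 0.0963-fold, and Ftl1, the ferritin light chain, 4.47-fold. Among the enzymes, Car1, a carbonic anhydrase, was 0.0105-fold with 1 UMI in low-gene barcodes, and Car2 was 0.578-fold. Bpgm, which makes the 2,3-bisphosphoglycerate that lowers oxygen affinity, was 16.7-fold higher. Of the minor globins, Hbq1a and Hbq1b, near-identical theta globin genes whose reads may be split between them, were 14.1-fold and 2.64-fold higher. The plot of red cell genes shows these as points far above and far below the line of equal levels.

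**Figure D4:**
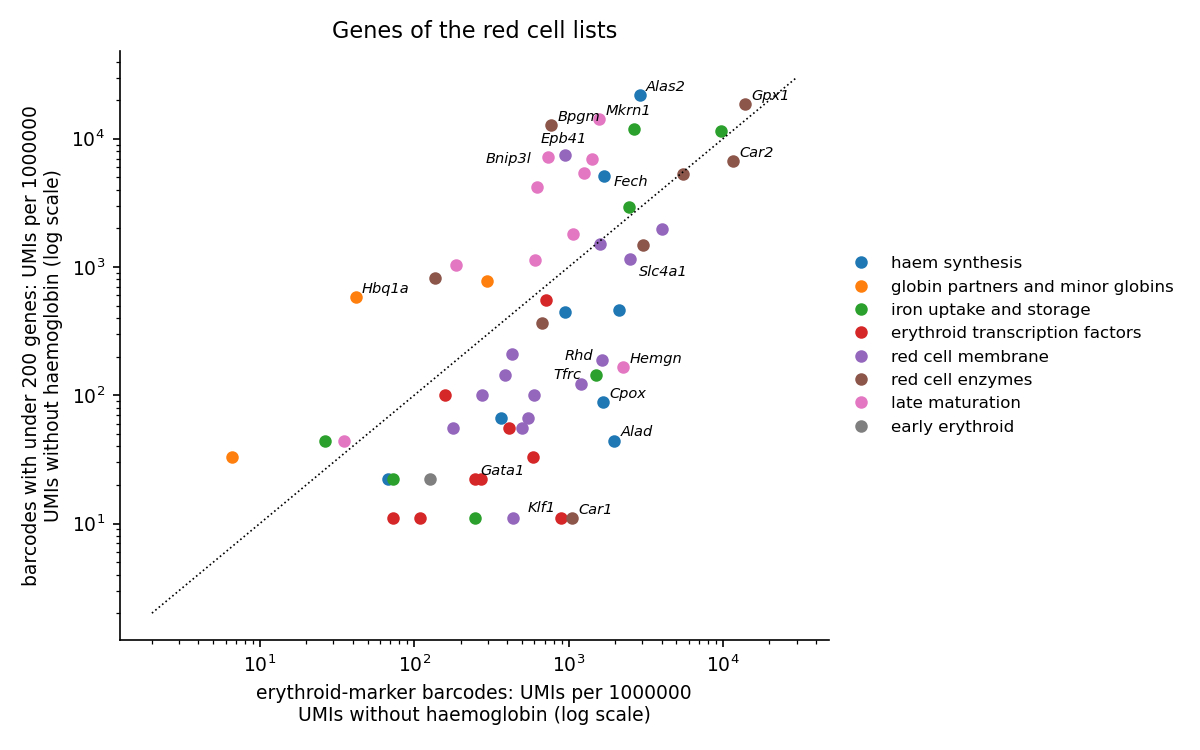
UMIs per 1000000 UMIs other than haemoglobin in low-gene barcodes (vertical axis) against erythroid-marker barcodes (horizontal axis), both on log scales, for the genes of 8 red cell lists, with the dotted line at equal levels and genes with no UMI in either group left out. Most late maturation genes lie above the line and most transcription factor, membrane and haem synthesis genes below it, while Fech, Alas2 and Epb41 lie above.

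The non-haemoglobin RNA of low-gene barcodes was led by a few genes. Pabpc1, which encodes a poly(A)-binding protein, took 9.53% of it in low-gene barcodes without neuron markers, the mitochondrial rRNA mt-Rnr2 7.53%, Gh 2.66%, Alas2 2.19% and Gpx1, a glutathione peroxidase, 1.87%. In erythroid-marker barcodes without neuron markers Pabpc1 took 1.11% and Gpx1 1.38%. Gh, the growth hormone gene of the pituitary, had a UMI in 88.0% of all 523 low-gene barcodes, and took 0.622% of the non-haemoglobin RNA in neuron-marker barcodes. Its part in the composition of low-gene barcodes was not tested. Of the 523 low-gene barcodes, 507 had a UMI of Alas2, 31 had one of the other 5 erythroid markers, and 16 had none of the 6.

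Over the 6474 barcodes with 200 or more genes, 14895 genes were compared with summed haemoglobin by Pearson's r of log2 values. Among the 10 that followed it most closely were Alas2 at 0.755, Car2 at 0.625 and Slc4a1 at 0.621. Slc25a37, the mitochondrial iron importer of red cells, stood at 0.610 and Pabpc1 at 0.591. Isg20 (0.580), Fech (0.558) and Gpx1 (0.558) were also among them. These correlations are across barcodes that share libraries and depth and are a description. Of the 10 genes, 8 were again among the first 10 with all UMIs as the denominator and 6 by Spearman's rho.

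Haemoglobin was then read in barcodes with no erythroid marker, which does not exclude a red cell in the droplet. In 3804 such barcodes with neuron markers and 200 or more genes, divided into 4 sets of 951 by their other UMIs, the median number of other UMIs was 1292, 2188, 3918 and 9650. The median number of haemoglobin UMIs was 4, 5, 7 and 18, and the median share 0.284%, 0.212%, 0.172% and 0.142%. Haemoglobin UMIs were more numerous in deeper barcodes but less than in proportion. At least 1 haemoglobin UMI was found in 90.7% of the shallowest and 99.9% of the deepest set.

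Other cell classes, chosen by 3 or more of 6 markers with 200 or more genes and no erythroid marker, were set beside the neurons. The classes share barcodes. Counted with or without an erythroid marker, 376 of 525 barcodes with myelinating glia markers, 218 of 292 with olfactory neuron markers and 114 of 350 with pituitary markers also had 3 or more of the sensory neuron markers. Counted in this way, most barcodes of the myelinating glia and olfactory classes were thus also in the neuron class. Of 129 barcodes with Fabp7 glia markers, 37 were. The median haemoglobin share was 0.168% with myelinating glia markers (429 barcodes), 0.186% with sensory neuron markers and 0.299% with Fabp7 glia markers (111). It was 0.395% in dividing cells, 0.468% with anterior pituitary markers (288), 0.559% with precursor B cell markers (91), 0.666% with olfactory neuron markers (245) and 0.780% with endothelial markers (113).

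The classes also differed in depth. In UMIs rather than shares, the median was 7 haemoglobin UMIs in the neuron class and 15 in the pituitary class, whose median depths were 2881.5 and 2816.5 UMIs. It was 12 in myelinating glia at a median depth of 4917 UMIs, 10 in Fabp7 glia at 2506, 13 in endothelium at 1475 and 15 in the olfactory class at 1520. The precursor B cell class had 9 at 1528 and dividing cells 8.5 at 1798. The interquartile range of the endothelial share (0.448 to 1.21%) lay above that of the neurons (0.0965 to 0.423%), while those of myelinating glia (0.0991 to 0.502%) and neurons overlapped. Haemoglobin thus took unequal shares of the classes, and whether this comes from depth, the runs or the cells was not tested. Neutrophil, macrophage and platelet markers gave 2, 2 and 1 barcodes, too few for a level.

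**Figure D5:**
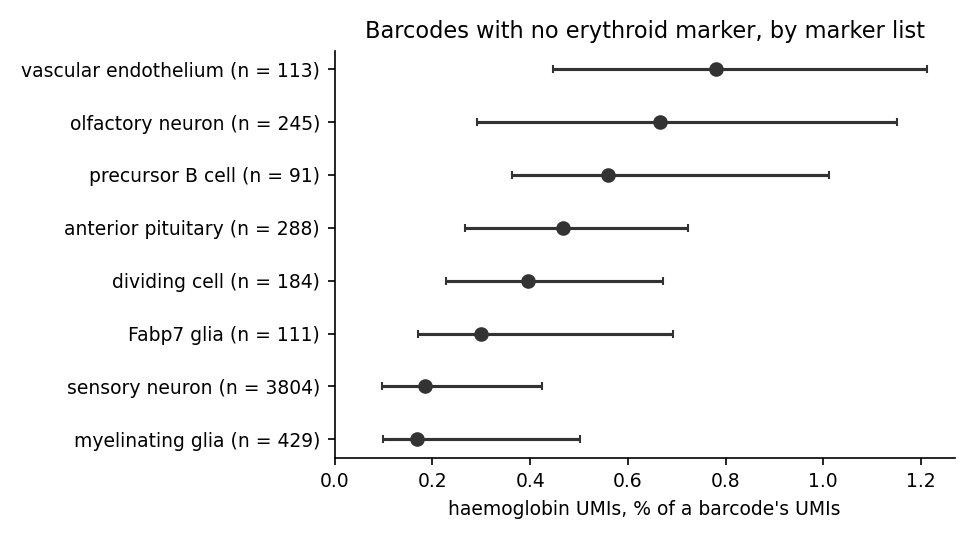
Share of haemoglobin genes in a barcode's UMIs (horizontal axis) in barcodes with 200 or more genes and no erythroid marker, by the list of which they held at least 3 markers, with the median as point and the 25th to 75th percentile as bar. Medians run from 0.168% in myelinating glia to 0.780% in endothelium.

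The ratio of the adult beta genes in these classes was taken in barcodes with under 1% haemoglobin. Hbb-bs to Hbb-bt was 7.0 (6.76 to 7.25) with sensory neuron markers, 7.32 (6.77 to 7.94) with myelinating glia markers and 6.97 (6.25 to 7.79) with olfactory neuron markers. It was 6.42 (5.77 to 7.16) with pituitary, 6.07 (5.25 to 7.05) in dividing cells and 5.99 (4.95 to 7.30) with precursor B cell markers. The lowest values were 5.78 (4.74 to 7.11) with Fabp7 glia and 5.47 (4.36 to 6.94) with endothelial markers. The intervals of all classes but endothelium reached the neuron value, and that of endothelium overlapped the neuron interval. In erythroid-marker barcodes with under 1% haemoglobin the ratio was between 5.88 and 10 in 4 bins of share with 4 to 13 barcodes each, and the interval of each bin overlapped that of every class. Alpha to beta lay between 0.272 and 0.316 in the 8 classes.

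Other red cell transcripts were counted against haemoglobin in the neuron-marker barcodes with 200 or more genes and under 0.5% haemoglobin. Alas2 stood at 4.17 UMIs per 1000 haemoglobin UMIs (3.53 to 4.88), against 3.87 (3.71 to 4.04) in low-gene barcodes, and these intervals overlapped. It stood at 4.95 (4.69 to 5.23) in erythroid-marker barcodes without neuron markers, a group that Alas2 helps to choose, and at 5.11 (4.65 to 5.60) in neuron-marker barcodes with 200 or more genes and at least 10% haemoglobin. The interval of 3.53 to 4.88 overlapped both of these too. Slc4a1 stood at 0.548 (0.335 to 0.847), from 20 UMIs, against 0.208 (0.172 to 0.249) in low-gene and 4.30 (4.06 to 4.56) in erythroid-marker barcodes. In neuron-marker barcodes with 200 or more genes and at least 10% haemoglobin it stood at 1.29 (1.06 to 1.55). Slc4a1, which the rule does not use, thus stood above the low-gene value and below the erythroid-marker value. Bpgm, at 13.7 (12.5 to 14.9) against 2.28 (2.15 to 2.41) and 1.33 (1.19 to 1.47), was higher per haemoglobin UMI in these neuron-marker barcodes than in either group. In neuron-marker barcodes with 200 or more genes and at least 10% haemoglobin, Bpgm stood at 2.24 (1.94 to 2.58). The barcodes under 0.5% were chosen for little haemoglobin, which is the divisor of these values. Whether these transcripts came from red cells was not tested.

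Barcodes outside the 3 groups resembled both ends. In these 1776 barcodes the pooled share was 4.47%, the median 0.588% and the Hbb-bs to Hbb-bt ratio 4.92 (4.85 to 5.0). The 222 of them with at least 10% haemoglobin had a ratio of 4.57 (4.49 to 4.65), and 77.5% of the 222 had an erythroid marker. The 1206 with under 1% had a ratio of 6.37 (5.97 to 6.80). Of the 7 genes, only Hba-x had no UMI in these barcodes, which allows at most 0.862 UMIs per 1000000 at a limit of 3 counts.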

How the data were processed

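Trigeminal ganglia were profiled by Dropseq in 9 runs, which the labels give as samples of 1 group. The authors deposited 1 table of raw UMI counts per gene and barcode, with no normalization. The submitters' processing notes name bcl2fastq 2.17, STAR 2.5.3a, Seurat 1.4.0.16 and the mm10 build. The methods state that reads were mapped with STAR. The rule for merging UMIs is not given in the sources used here.

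Counts were summed over groups of barcodes with Python 3.11.15, numpy 2.4.6 and scipy 1.17.1. Ratios have intervals from the exact binomial share of their parts. A fold between groups was taken from UMIs per 1000000 UMIs other than haemoglobin, for genes with 20 or more UMIs over both groups, with a group at 0 set to 3 UMIs. Shares of barcodes were also computed after random thinning to 1000 UMIs. No doublet caller was run, and the overlap of marker groups is given instead. Scripts were tested on simulated data. The members, groups and gene lists were chosen with earlier results of these data known.

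Genes named were all members, the 10 most correlated with summed haemoglobin (log2 of 1 plus UMIs per 10000 other UMIs, genes with a UMI in 20 or more barcodes), the 5 other genes with most UMIs in low-gene barcodes and up to 6 genes of each list. The last were those with most UMIs in erythroid-marker barcodes. Epb41 and Epb42 stand in the table under older symbols, and Ahsp was not used here. Some genes that the rule would name are not reported here. The alternatives tried were other limits on genes and markers, the removal of overlapping barcodes, thinning and the removal of the barcode with most haemoglobin UMIs.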

Additional observations from a re-analysis of the deposited data

How the results depend on the processing

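No paired analysis was possible because barcodes are not tied to runs, and for the same reason no run could be left out. Of 57 alternative values for the 3 shares and 6 ratios, 20 stayed inside the counting interval, and the cause of the other shifts was not tested. In low-gene barcodes, a limit of 150 genes gave a share of 85.9% and an Hbb-bs to Hbb-bt ratio of 4.41, a limit of 300 genes gave 81.0% and 4.30, counting genes without haemoglobin gave a share of 84.5% and thinning gave 84.4%. In erythroid-marker barcodes, 1 or more markers gave a share of 8.04%, an alpha to beta ratio of 0.382 and an Hbb-bs to Hbb-bt ratio of 4.51. At 3 or more markers the share was 34.7% and alpha to beta 0.405, without Alas2 they were 32.0% and 0.405, and without neuron-marker barcodes 36.8% and 0.406. Thinning gave a share of 39.6%, and removal of the barcode with most haemoglobin UMIs gave 20.4%.

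In neuron-marker barcodes, the share, alpha to beta and Hbb-bs to Hbb-bt were 1.65%, 0.359 and 4.89 with 2 or more markers and 0.439%, 0.302 and 6.58 with 5 or more. They were 0.355%, 0.306 and 6.96 without barcodes with an erythroid marker, 0.362%, 0.300 and 6.99 without barcodes at 5% haemoglobin or more, and 2.52%, 0.351 and 4.99 after thinning, which gives every barcode the same weight. Removal of the barcode with most haemoglobin UMIs gave a share of 0.920%. In alternatives chosen after seeing the data, they were 0.775%, 0.332 and 5.65 without barcodes with under 200 genes, and the share was 0.934% without barcode sequences found in 2 columns. The neuron-marker Hbb-bs to Hbb-bt ratio was above both haemoglobin-rich groups under each of these settings. Without the minimum of 20 UMIs, 54 list genes in place of 52 were at least 2-fold higher in erythroid-marker than in neuron-marker barcodes. Of the 7 genes, the embryonic genes rest on the fewest UMIs, 55 of Hbb-y, 20 of Hbb-bh1 and 2 of Hba-x.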

Other observations

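Dividing cells were the class with most overlap with the erythroid-marker group. Of the barcodes with 3 or more markers of dividing cells, 294 were also erythroid-marker barcodes, and 52.3% of the class had at least 10% haemoglobin. In the other classes with at least 20 barcodes, between 2.95% (sensory neurons) and 13.7% (endothelium) of barcodes had at least 10% haemoglobin.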
